A study of Mus musculus with 20 samples.

Results

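Hematopoietic stem cells (HSC) and CD4 T cells were compared as populations that divide little while they wait, the former at the origin of the blood system and the latter a mature lymphocyte that awaits antigen. The comparison holds 4 of the 20 arrays of the series: the 2 titled as wild-type hematopoietic stem cells and the 2 titled as CD4 T cells, taken by title alone. Their values were set against 12 arrays of 5 other wild-type populations: multipotent progenitors (MPP, 2 arrays), lymphoid-primed multipotent progenitors (LMPP, 2), common lymphoid progenitors (CLP, 3), granulocyte-monocyte progenitors (GMP, 3) and Pro B cells (2). These 16 arrays carry RNA of sorted marrow cells of wild-type C57bl/6 mice aged 8-14 weeks, so the CD4 T cells are those of the marrow and no lymph node or spleen cells were measured. The labels do not give the sort gates, and nothing in them says whether replicates came from separate mice, and the p-values cover only the spread among these arrays, which may be technical. The remaining 4 arrays, from NK cells of Rag2-deficient 129 mice with and without Ets1, are not wild type; they entered the filter on dim genes and the estimate of the spread, and no comparison. The series was made to find Ets1-dependent genes in NK cells; the stem cells and T cells were part of its panel of reference populations.

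A quiescent cell leaves the division cycle reversibly. Its cyclin-dependent kinases (CDKs) are held by inhibitor proteins, the retinoblastoma family with its E2F partners keeps the genes of DNA replication silent, and a related complex does the same for the genes of mitosis, which rise only as a cell nears division. Stem cells in this state are known for long-term renewal of the blood, and naive and memory T cells for surviving for long on cytokine and receptor signals before an antigen drives them into rapid growth.

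Levels are log2 intensities, and a difference of 1 on this scale is a doubling. A gene was called in a comparison when its adjusted p was below 0.05 (limma, Benjamini-Hochberg over the 13479 genes tested). Differences carry the standard error (SE) of that model. Most markers of each label were higher in its own arrays than in the other population. Procr, a receptor of the endothelial and stem cell surface, was at 10.19 and 10.50 in the HSC arrays and at 3.23 and 3.37 in CD4 T cells, and the stem cell transcription factor Hlf at 10.71 and 11.38 against 3.97 and 3.88. Cd3g, a chain of the T cell receptor complex, was at 11.32 and 10.79 in CD4 T cells and at 2.91 and 2.85 in HSC, and the co-receptor Cd4 at 9.06 and 9.53 against 4.73 and 4.46. For these 4 markers the arrays of the labelled population lay far from the other. Slamf1, another stem cell marker, did not separate them, at 6.61 and 6.55 in HSC and 6.94 and 6.71 in CD4 T cells. Among the other groups MPP replicate 2 came nearest to HSC, at 8.23 for Procr and 9.88 for Hlf. Of 34 stem cell genes tested 31 were called higher in HSC and 1 higher in CD4 T cells. Of 30 T lineage genes 27 were called higher in CD4 T cells and 0 in HSC. Over all genes 16.7% were called higher in HSC and 14% in CD4 T cells.

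The arrays differed in the 3′ to 5′ signal of the actin control probes, a sign of RNA length and amplification. The log2 difference was 0.97 to 1.23 in CD4 T cells and 2.16 to 2.65 in HSC. It was 1.88 to 3.11 in MPP, LMPP and Pro B cells, 3.26 to 5.27 in CLP and 6.44 to 6.68 in GMP. For the Gapdh control probes HSC and CD4 T cells overlapped, at 2.17 to 2.52 and 2.40 to 2.54. The Gapdh difference was 1.98 to 2.79 in MPP, LMPP and Pro B cells, 3.05 to 5.10 in CLP and 5.35 to 5.69 in GMP. Because it is highest in groups on 1 side of the comparison, counts against the 5 groups were repeated against MPP, LMPP and Pro B cells alone, an alternative added after the data were seen. Other settings that bear on it left out CLP replicates 1 and 3 or the GMP group, which gave 3333 and 3269 genes called higher and 2203 and 1619 called lower in the comparison of both populations with the others. Replicate arrays correlated at r = 0.958 in HSC and 0.979 in CD4 T cells over the genes tested.

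Genes of the cell cycle were low in both populations. Averaged over 51 mitotic genes, the level was 5.76 and 5.63 in the CD4 T arrays, 5.38 in HSC replicate 1 and 6.99 in HSC replicate 2. The other 12 arrays ran from 6.66 to 9.76 with a median of 8.44. CD4 T cells and HSC replicate 1 therefore lay below every other array, while HSC replicate 2 lay within the span of the CLP arrays (6.66 to 7.26) and below all arrays of MPP, LMPP, GMP and Pro B cells. Averaged over 55 replication genes, the values were 6.72 and 6.57 in CD4 T cells, 7.06 and 7.69 in HSC, and 7.61 to 9.37 elsewhere. Here too only HSC replicate 2 reached into the range of the others. In bulk RNA, fewer dividing cells and less of these transcripts per cell cannot be told apart.

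**Figure D1:**
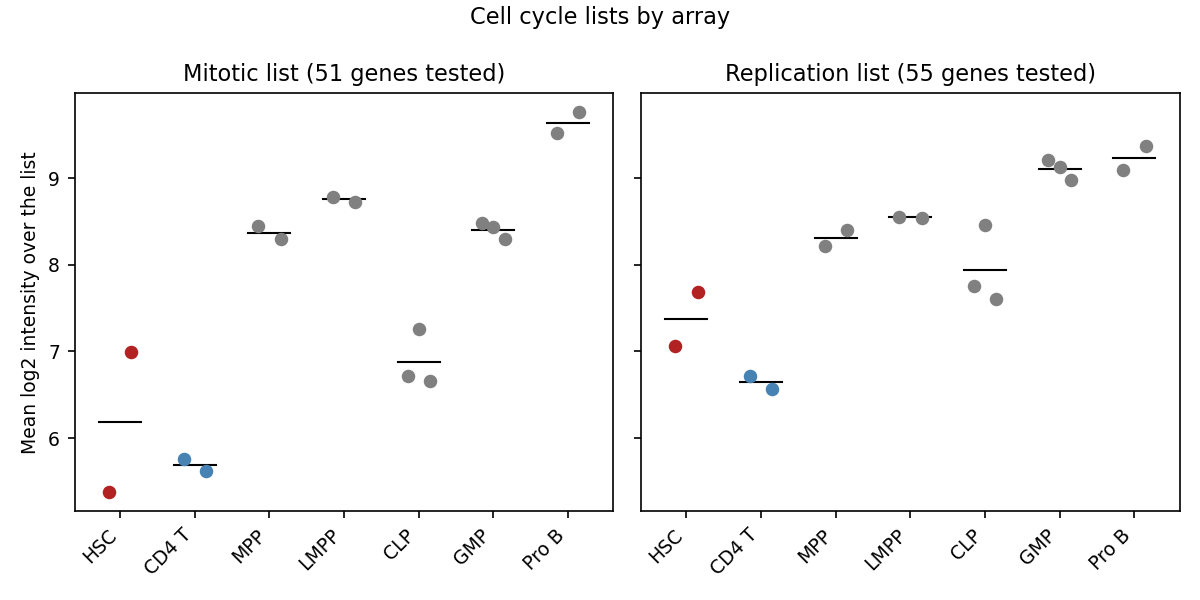
Mean log2 intensity over the mitotic list (left, 51 genes) and the replication list (right, 55 genes) on each of the 16 wild-type arrays. Points are arrays, black lines are group means, HSC are red and CD4 T cells blue. The CD4 T arrays sit at 5.76 and 5.63 in the left panel, and the HSC arrays at 5.38 and 6.99.

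The mean of HSC and CD4 T cells was then tested against the mean of the 5 other groups, here called the resting mean. In it 4906 of 13479 genes were called (36.4%), 3148 higher (23.4%) and 1758 lower (13%). The split depends on scaling: 64.2% of the calls were higher as deposited, 47.5% after centring each array on housekeeping genes and 51.8% after a repeated quantile normalization. The median over all genes was 0.048 as deposited and -0.147 after the housekeeping centring. Against that background 47 of 51 mitotic genes were called lower and 1 higher (median -2.79), and 50 of 55 replication genes lower and 0 higher (median -1.57). The lower counts were 48 and 50 against MPP, LMPP and Pro B cells alone, where 1373 of all 13479 genes were called lower.

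Each population was also low by itself, in comparisons that share the same 12 arrays. HSC alone had 49 of 51 mitotic genes called lower and 43 of 55 replication genes, where 7.92% of all genes were called lower. CD4 T cells alone had 46 and 47, where 18.3% of all genes were called lower. Ccna2, the cyclin of S phase and G2, was at 3.74 and 7.38 in HSC and at 5.30 and 4.05 in CD4 T cells, and between 7.91 and 11.08 in the others. All 4 arrays lay below the 12, and the resting mean was lower by a log2 difference of -4.38 (SE 0.40, adjusted p = 7.68e-08). Ect2, which drives cytokinesis, was at 3.21 and 4.62 in HSC and 4.0 and 4.13 in CD4 T cells against 5.11 to 9.25, and Cdc20, the activator of the anaphase-promoting complex, at 7.75 and 8.91 and at 6.46 and 6.50 against 9.43 to 11.82. Neither gene overlapped. Nusap1 and Nuf2, both of the spindle, had resting means of -3.60 and -3.59 (SE 0.33 each), but HSC replicate 2, at 6.62 and 6.20, lay inside the range of the other groups for both.

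Among replication genes the largest fall was that of Dtl, part of a ubiquitin ligase that limits replication to once per cycle. It was at 6.35 and 7.33 in HSC, 3.82 and 4.82 in CD4 T cells and 7.72 to 9.88 elsewhere (resting mean -3.47, SE 0.26, adjusted p = 8.06e-09). E2f7 and E2f8, atypical members of the E2F family that repress, were also lower, and E2f8 was at 5.99 and 7.09 in HSC and 5.42 and 4.05 in CD4 T cells against 8.26 to 10.01. Rrm2, which makes deoxyribonucleotides, was at 5.66 and 8.05 and at 7.23 and 6.85 against 9.26 to 11.51. Uhrf1, which keeps DNA methylation through replication, was at 7.38 and 7.51 and at 4.86 and 5.14 against 8.69 to 9.94. In all 4 genes the 4 arrays lay below the 12.

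Promoter sequences are shown for 5 of these low genes, each picked because its window holds a match, to show motifs that the choice of the lists did not use. RefSeq windows of 300 bases (250 before to 50 after the start, GRCm38.p6) were found for 41 of the 51 mitotic genes and 44 of the 55 replication genes, some with several starts. TTTGAA, the cell cycle homology region (CHR), was found on either strand in 75% of the mitotic windows and in 17.9% of all 32851 windows, and CCAAT in 75% against 37.4%. In the replication windows TTTGAA stood in 17.3%. The E2F words TTTGGCGC or TTTCGCGC stood in 25% of the replication windows, 2.27% of the mitotic ones and 0.813% of all. In the windows of all shared low genes (low in both HSC and CD4 T cells), TTTGAA stood in 21.9% and the E2F words in 5.02%. Of the 10 shared low genes with the largest margins 9 had a window, with TTTGAA in 3 and an E2F word in 0. These are matches of letters, not shown to be sites, and motifs were counted separately where they overlap. The 200 bases before the start follow, 5′ to 3′ on the gene's strand, with CHR and CCAAT matches in capitals for Ect2 (chr3:27153879-27154078, minus strand), Cdc20 (chr4:118437344-118437543, minus) and Kif22 (chr7:127042421-127042620, minus), and E2F matches in capitals for Dtl (chr1:191575545-191575744, minus) and Uhrf1 (chr17:56304113-56304312, plus).
Ect2: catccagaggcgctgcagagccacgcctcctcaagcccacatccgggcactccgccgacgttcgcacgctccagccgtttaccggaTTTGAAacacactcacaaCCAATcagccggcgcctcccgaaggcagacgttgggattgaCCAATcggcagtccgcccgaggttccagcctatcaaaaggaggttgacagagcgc
Cdc20: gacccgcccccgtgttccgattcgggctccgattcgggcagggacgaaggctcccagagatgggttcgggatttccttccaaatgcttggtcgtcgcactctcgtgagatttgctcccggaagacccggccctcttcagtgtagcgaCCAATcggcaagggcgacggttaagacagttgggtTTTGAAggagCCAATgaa
Kif22: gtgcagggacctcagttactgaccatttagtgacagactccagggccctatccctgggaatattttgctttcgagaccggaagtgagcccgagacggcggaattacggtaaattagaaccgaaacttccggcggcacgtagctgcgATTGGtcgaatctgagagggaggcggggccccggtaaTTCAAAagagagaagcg
Dtl: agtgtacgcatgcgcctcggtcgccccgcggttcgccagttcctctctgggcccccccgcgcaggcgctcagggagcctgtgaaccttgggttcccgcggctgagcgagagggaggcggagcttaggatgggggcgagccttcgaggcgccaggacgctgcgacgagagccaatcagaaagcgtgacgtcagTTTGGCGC
Uhrf1: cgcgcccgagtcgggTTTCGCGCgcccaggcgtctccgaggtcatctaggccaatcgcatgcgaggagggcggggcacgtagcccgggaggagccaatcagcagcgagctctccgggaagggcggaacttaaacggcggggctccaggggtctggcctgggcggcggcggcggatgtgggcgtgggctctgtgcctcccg

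The CHR began 114 bases before the start in Ect2, 18 in Cdc20 and 17 in Kif22, where it reads as TTCAAA on the strand shown, with a CCAAT or its reverse ATTGG 55 to 53 bases before the start in each. The E2F word began 8 bases before the start in Dtl and 185 in Uhrf1. Kif22, a chromosome-moving kinesin and a shared low gene that neither list holds, was at 6.40 and 8.69 in HSC and 7.54 and 6.73 in CD4 T cells against 9.58 to 11.19 in the others.

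Between the populations themselves, 4142 of 13479 genes were called (30.7%), 2250 higher in HSC (16.7%) and 1892 higher in CD4 T cells (14%). The latter count fell to 1229 without HSC replicate 1. At least 2-fold differences were called for 1829 and 1603 genes. The HSC and CD4 T group means stood 1.31 apart (root mean square log2 difference over genes), about as far as CD4 T cells stood from any other wild-type group (1.27 to 1.42), while HSC stood 0.627 from MPP.

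On the mitotic list the difference between HSC and CD4 T cells turned on which HSC array was used. With both, 13 genes were called higher in HSC and 4 higher in CD4 T cells, where 16.7% and 14% of all genes were. Without HSC replicate 1 these counts were 32 and 3, and without HSC replicate 2 they were 3 and 10. Stmn1, a microtubule-destabilizing protein, was higher in both HSC arrays (12.43 and 12.49 against 10.28 and 9.87; difference 2.39, SE 0.28, adjusted p = 2.08e-06). The phosphatase gene Cdc25b (4.62 and 4.60 against 7.22 and 7.39) and the condensin gene Smc4 (9.06 and 10.11 against 11.57 and 11.48) were higher in both CD4 T arrays, and neither was called in the resting mean. Against MPP, LMPP and Pro B cells alone Cdc25b was called lower (-0.884). The replication list leaned towards HSC: 22 of 55 genes were called higher in HSC and 2 higher in CD4 T cells, with 26 and 1 without HSC replicate 1 and 12 and 6 without HSC replicate 2. Chaf1b, a chromatin assembly subunit, was at 8.03 and 8.39 in HSC and at 4.70 and 5.48 in CD4 T cells (3.12, SE 0.37, adjusted p = 1.85e-06). The polymerase gene Pole (2.51, SE 0.35) and Uhrf1 (2.45, SE 0.28) differed the same way, and so did Dtl (2.52, SE 0.46), for which 1 other probe set was called the same way and 4 were not called.

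Of the CDK inhibitor genes Cdkn1c was high in HSC, Cdkn1b in CD4 T cells and Cdkn2d in both. Cdkn1c (p57) was at 7.79 and 7.82 in HSC and at 3.62 and 3.77 in CD4 T cells, with 3.21 to 4.68 in the other groups. The HSC arrays stood apart from all the rest, and the difference from CD4 T cells was 4.11 (SE 0.25, adjusted p = 3.36e-10). Cdkn1b (p27) was at 8.06 and 8.45 in CD4 T cells and at 5.75 and 6.28 in HSC, which lay within the 5.50 to 6.70 of the others (difference -2.24, SE 0.31, adjusted p = 1.28e-05). Cdkn2d (p19) was higher in both, at 6.73 and 6.47 in HSC and 7.93 and 8.15 in CD4 T cells (resting mean 2.00, SE 0.19, adjusted p = 1.09e-07), although HSC replicate 2 overlapped the upper end of the others (3.13 to 6.72) and HSC stood 1.44 below CD4 T cells. Against MPP, LMPP and Pro B cells alone its value was 1.143. Cdkn2c (p18) was lower in both, at 5.54 and 6.48 and at 6.56 and 6.32, overlapping CLP at the bottom of a range of 6.19 to 9.28 (resting mean -1.74, SE 0.19). Cdkn1a (p21), a target of p53, was at 9.11 and 6.14 in the HSC arrays, and at 4.75 and 4.16 in CD4 T cells against 6.33 to 8.69. The first HSC array lay above all 12 others and the second below them, and CD4 T cells lay lowest (HSC minus CD4 T 3.17, SE 0.60, adjusted p = 0.000409; 1.689 without HSC replicate 1).

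**Figure D2:**
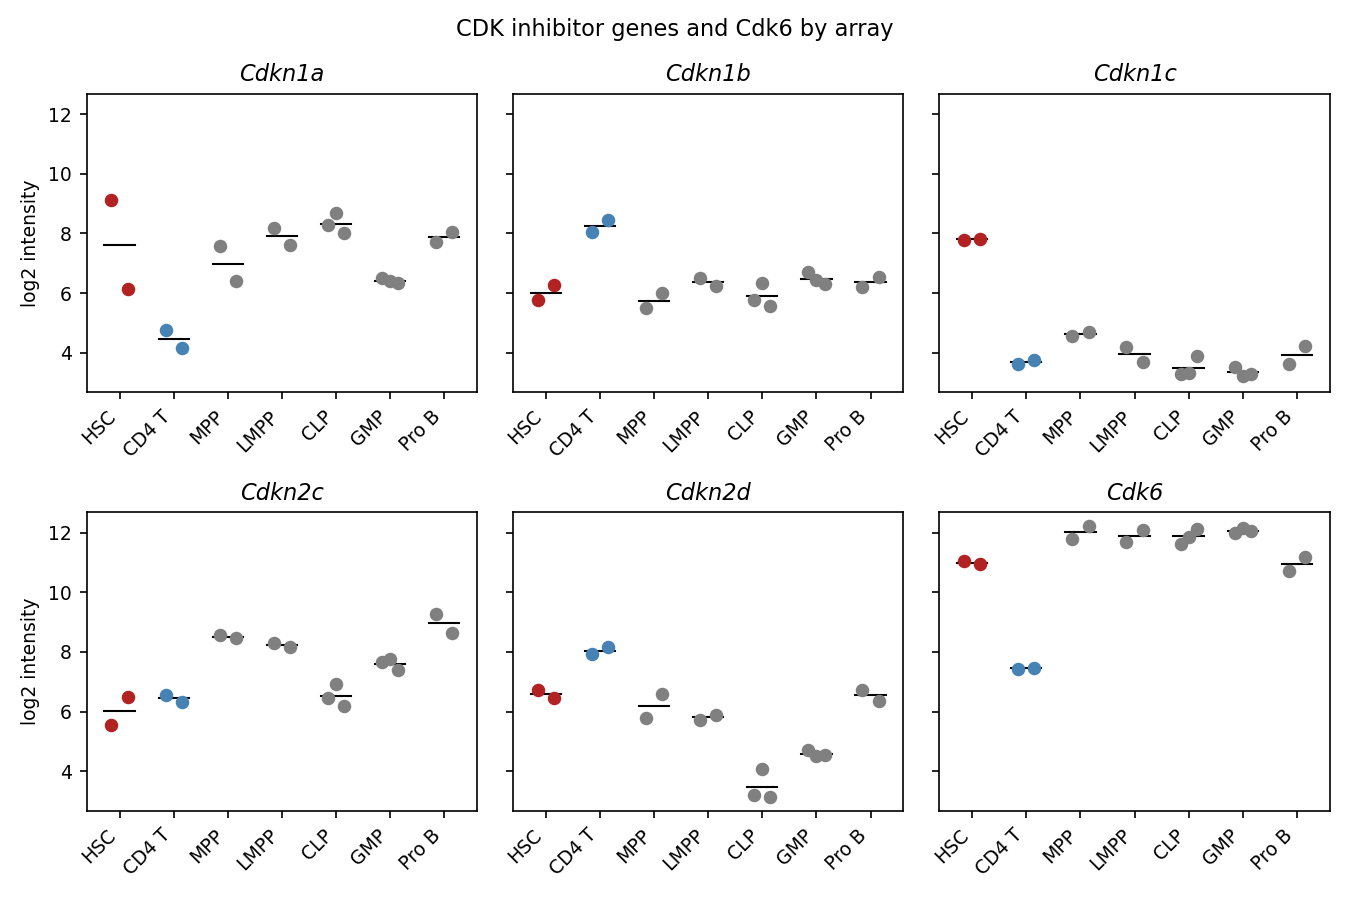
Log2 intensity of 5 CDK inhibitor genes and Cdk6 on the 16 wild-type arrays, 1 panel for each gene, with group means as black lines. Cdkn1c stands at 7.79 and 7.82 in HSC (red) and at or below 4.68 elsewhere, Cdkn1b at 8.06 and 8.45 in CD4 T cells (blue), and Cdk6 at 7.44 and 7.46 in CD4 T cells.

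The kinases and cyclins these proteins act on also parted. Cdk6 was at 7.44 and 7.46 in CD4 T cells against 11.04 and 10.95 in HSC and 10.72 to 12.24 in the others (3.54, SE 0.25, adjusted p = 2.34e-09), although 1 of its probe sets gave 0.466 (adjusted p = 0.379). Cdk4 (1.69, SE 0.38) and Ccnd1 (1.64, SE 0.34), the cyclin D1 gene, were higher in HSC. The pocket protein gene Rb1 was at 6.29 and 6.38 in HSC and at 8.31 and 7.76 in CD4 T cells (-1.70, SE 0.50, adjusted p = 0.0138), a call lost without HSC replicate 1 or CD4 T replicate 1. Ccnd2 and Ccng1 were higher in CD4 T cells with adjusted p = 0.0452 each, and both calls were lost under several alternatives. Rbl2, the p130 gene of the quiescence complex, was at 7.16 and 9.34 in HSC and 7.66 and 7.32 in CD4 T cells against 3.98 to 7.96 (resting mean 1.46, SE 0.43, adjusted p = 0.0128), and its call was lost without HSC replicate 2 (0.912), without CD4 T replicate 1 (1.371) and against MPP, LMPP and Pro B cells alone (1.22). Of the 19 genes of this list 7 were called higher and 7 lower in the resting mean, with 3 to 8 and 4 to 9 over all settings tried. The resting mean shares over all genes were 23.4% and 13%.

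Genes were counted as shared when they were called in the resting mean and both the HSC and the CD4 T mean lay beyond all 5 other group means. There were 1152 such genes on the high side (8.55%) and 558 on the low side (4.14%). Without the test, both means lay above the others for 1297 genes (9.62%) and below them for 771 (5.72%). All 4 arrays lay above the 12 others for 394 genes (2.92%), 392 of them shared (2.91%), and below them for 143 (1.06%), 141 of them shared (1.05%). Of the 1152, 230 were also called higher in CD4 T cells than in HSC and 31 higher in HSC, and 891 were not called between them. The 38 shared mitotic genes and 34 shared replication genes were all on the low side, and these counts were 22 and 27 without HSC replicate 1. Against MPP, LMPP and Pro B cells alone 924 of the 1152 and 447 of the 558 met the rule again.

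The shared high genes named here have the largest margins, the distance from the nearer of both means to the highest of the 5 other groups. Slamf1 (CD150), used to sort stem cells and a co-receptor of T cells, was at 6.61 and 6.55 in HSC and 6.94 and 6.71 in CD4 T cells against 3.02 to 4.75 (resting mean 3.19, SE 0.15, adjusted p = 2.38e-11). Gata3, the master factor of helper T cells, was at 6.34 and 6.45 in HSC and 6.61 and 6.66 in CD4 T cells, and 2.45 to 4.97 elsewhere (2.94, SE 0.16). The differences between HSC and CD4 T cells for Slamf1 and Gata3 were -0.25 (SE 0.26) and -0.24 (SE 0.27), and neither was called. Abcb1a, a drug efflux pump, was at 4.82 and 5.66 in HSC and 6.59 and 7.35 in CD4 T cells against 2.37 to 3.36 (3.44, SE 0.19), and was called higher in CD4 T cells (-1.72, SE 0.32). Abcg3, of another transporter family, was at 5.49 and 6.65 and at 6.04 and 6.49 against 3.00 to 3.96.

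Tgfbr3, the betaglycan co-receptor for TGF-beta, was at 8.44 and 9.51 in HSC and 9.64 and 9.18 in CD4 T cells against 4.22 to 8.21, with MPP the nearest (4.08, SE 0.36, adjusted p = 5.1e-08). Itgb3, the beta 3 integrin, was at 8.46 and 8.43 and at 8.91 and 9.13 against 3.04 to 7.07 (3.98, SE 0.29). Mllt3, a reader of histone acylation known in stem cells, was at 8.91 and 9.72 in HSC and 7.97 and 8.31 in CD4 T cells against 4.62 to 7.22 (3.01, SE 0.29). Cbx7, a Polycomb subunit, was at 6.45 and 6.04 and at 7.01 and 7.09 against 3.47 to 4.59 (2.63, SE 0.19), and the arginine methyltransferase gene Prmt2 at 8.55 and 8.56 and at 9.11 and 8.60 against 5.48 to 6.92 (2.42, SE 0.23). In each of the 10 genes all 4 arrays lay above the 12, but they were picked by their margin, so this separation is no result. For Itgb3 and Cbx7 another, dimmer probe set was not called, and averaging probe sets gave 2.148 and 1.037. The averages were 1.918 for Slamf1 and 2.257 for Tgfbr3.

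**Figure D3:**
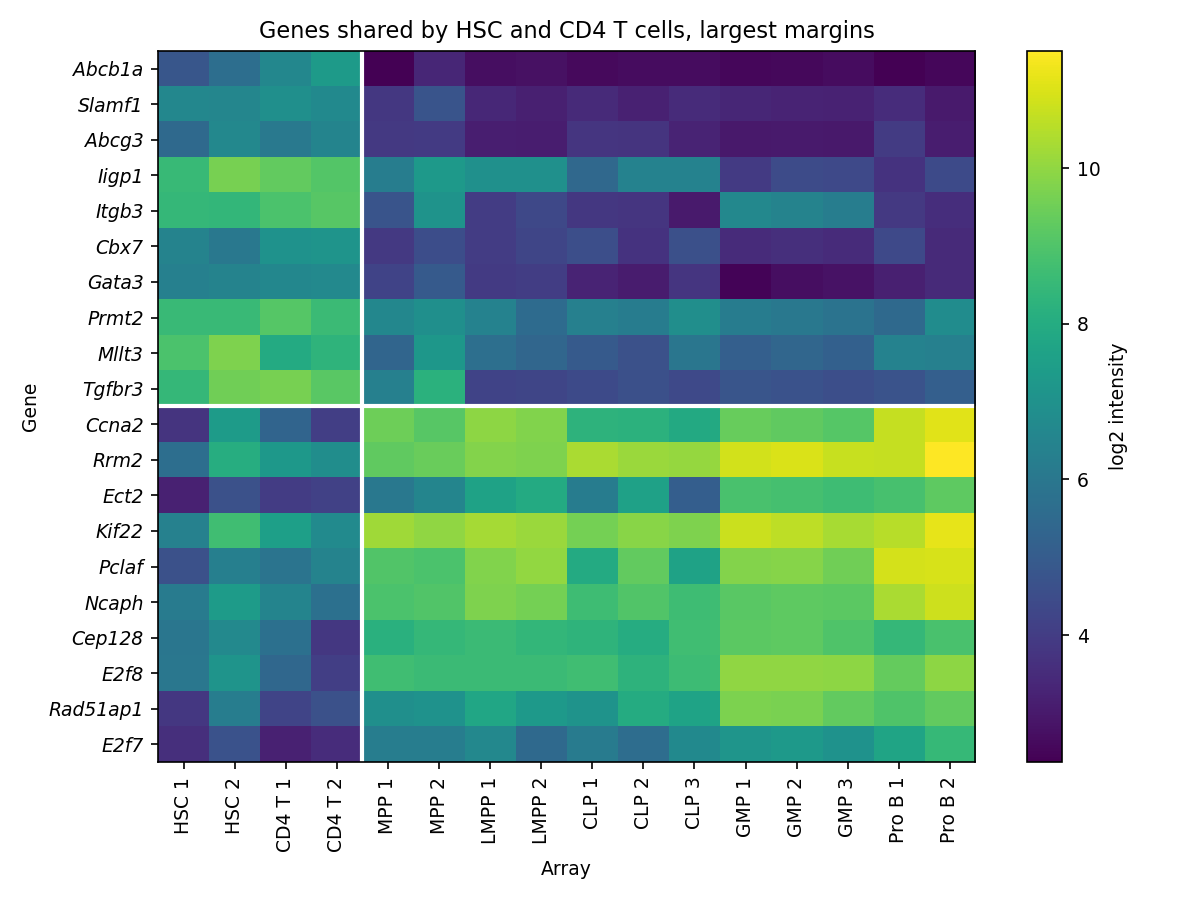
Log2 intensity (colour) of the 10 shared high genes (top) and 10 shared low genes (bottom) with the largest margins on the 16 wild-type arrays. The 4 arrays left of the white line are HSC and CD4 T cells. They lie above the 12 others in the top block (Slamf1 6.55 to 6.94 against 3.02 to 4.75) and below them in the bottom block. The genes were picked by their margin, so this separation is no result.

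The shared low genes with the largest margins were Ccna2, Rrm2, Ect2, Kif22, Pclaf, Ncaph, Cep128, E2f8, Rad51ap1 and E2f7, with resting means from -2.95 to -4.38. Most are known for the S and M phases: Pclaf binds the replication clamp, Ncaph is a condensin subunit and Rad51ap1 acts in recombination repair. Of the 10, Cep128 (1.51, SE 0.45) and E2f8 (1.80, SE 0.38) were called higher in HSC than in CD4 T cells, and the Cep128 call was lost without HSC replicate 2, without CD4 T replicate 2 and with the HSC and CD4 T arrays alone.

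Interferon-stimulated genes and the MHC class I pathway were high in both populations. Of 33 interferon-stimulated genes tested 26 were called higher in the resting mean and 2 lower, where 23.4% and 13% of all genes were. The median was 1.20 against 0.048 over all genes, and 16 were shared on the high side, where 8.55% of all genes were. The shared count was 20 without HSC replicate 1 and 9 without HSC replicate 2. HSC alone had 16 of the 33 called higher against the 5 groups and CD4 T cells 26, where 17.3% and 22.5% of all genes were. The mean level of the list was 7.42 and 8.04 in HSC and 8.13 and 8.09 in CD4 T cells against 6.24 to 7.36. HSC replicate 1 thus lay only just above LMPP replicate 2 (7.36) and MPP replicate 2 (7.33). Iigp1, an immunity-related GTPase, was at 8.54 and 9.64 in HSC and 9.32 and 9.05 in CD4 T cells against 3.72 to 7.32 (3.51, SE 0.27, adjusted p = 1.04e-08). The nucleotide phosphohydrolase gene Samhd1 was higher too (2.76, SE 0.27), with the 4 arrays above the 12, and Gbp2, a guanylate-binding protein gene, at 8.39 and 9.14 and at 9.99 and 9.96 against 6.10 to 8.42 (2.37, SE 0.19). For Gbp2 HSC replicate 1 fell into the range of the others. Against MPP, LMPP and Pro B cells alone 25 of the 33 were called higher.

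Within the same list 17 of the 33 genes were called higher in CD4 T cells (11 without HSC replicate 1) and 4 in HSC. Over all genes 14% were called higher in CD4 T cells and 16.7% in HSC. Ifit1, an antiviral RNA-binding protein gene, was at 8.14 and 8.32 in CD4 T cells and 4.32 and 5.62 in HSC (-3.26, SE 0.35). The transmembrane restriction factor genes Ifitm1, Ifitm2 and Ifitm3 ran the other way: Ifitm1 was at 11.66 and 12.08 in HSC and 4.53 and 3.99 in CD4 T cells (7.61, SE 0.38, adjusted p = 1.75e-11), Ifitm2 differed by 6.05 (SE 0.42) and Ifitm3 by 5.34 (SE 0.32). Ifitm2 stood lower in both CD4 T arrays (3.08 and 2.32) than in any other group (7.21 to 9.11).

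The promoters of Ifit1 (chr19:34640689-34640888, GRCm38.p6, plus strand) and Gbp2 (chr3:142620463-142620662, plus) are shown as the named members with an interferon response word, which is GAAA, any 2 bases and GAAA again on either strand, in capitals over the 200 bases before the start. In both it reads as the reverse complement. The word stood in 54.8% of the 31 windows found for 26 genes of the list and in 3.44% of all windows. In the windows of all shared high genes it stood in 4.93%, near the share of all windows. Of the 10 shared high genes with the largest margins 7 had a window, and 0 of these held the word.
Ifit1: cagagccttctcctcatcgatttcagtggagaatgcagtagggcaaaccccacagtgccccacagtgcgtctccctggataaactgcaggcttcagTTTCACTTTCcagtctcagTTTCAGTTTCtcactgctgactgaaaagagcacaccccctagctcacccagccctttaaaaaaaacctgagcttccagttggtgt
Gbp2: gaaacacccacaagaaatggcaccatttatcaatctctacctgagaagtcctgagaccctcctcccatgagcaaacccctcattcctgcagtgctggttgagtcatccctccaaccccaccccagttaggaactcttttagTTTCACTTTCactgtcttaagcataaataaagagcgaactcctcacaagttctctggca

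All 12 MHC class I and peptide loading genes tested were called higher in the resting mean (median 1.15), where 23.4% of all genes were. Of the 12, 7 were shared, where 8.55% of all genes were. Against MPP, LMPP and Pro B cells alone 10 were called higher, where 2532 of all 13479 genes were. HSC alone had 7 called higher against the 5 groups and CD4 T cells 12, where 17.3% and 22.5% of all genes were. The mean level of the list was 10.14 and 10.24 in HSC and 10.74 and 10.75 in CD4 T cells, with MPP replicate 2 the nearest at 9.98. H2-K1, a classical class I heavy chain, was at 13.08 and 13.44 in HSC and 13.40 and 13.29 in CD4 T cells against 10.08 to 13.02 (1.56, SE 0.14, adjusted p = 7.2e-08). H2-D1 was at 12.31 and 12.71 and at 12.76 and 12.89 against 9.60 to 12.22, and the immunoproteasome gene Psmb10 at 9.59 and 9.29 and at 10.06 and 10.24 against 6.38 to 8.81. The chaperone gene Tapbp was also higher (1.24, SE 0.16). For all 4 genes the HSC and CD4 T arrays lay above every other array, and H2-K1 differed between them by -0.08 (SE 0.25). H2-K1 and H2-D1 are closely related genes, and their probe sets may share signal. Tap1 was higher in CD4 T cells (-1.19, SE 0.27), a call lost when its probe sets were averaged (-0.32).

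Most genes of the growth restraint list were higher in the resting mean. Of 41 tested 28 were called higher in the resting mean and 2 lower (median 1.05), where 23.4% and 13% of all genes were. Between the populations 9 were higher in HSC and 15 in CD4 T cells, where 16.7% and 14% of all genes were. Slfn2, a Schlafen gene needed for T cell quiescence, was at 7.36 and 7.56 in HSC and 11.01 and 10.92 in CD4 T cells against 5.18 to 6.22 (3.61, SE 0.14, adjusted p = 1.85e-12). All 4 arrays stood above the others, and CD4 T cells were higher than HSC (-3.50, SE 0.24). Klf2, which keeps T cells resting, was at 8.71 and 7.81 in HSC and 10.53 and 10.02 in CD4 T cells against 3.80 to 8.65 (3.08, SE 0.28; 1.978 against MPP, LMPP and Pro B cells alone). Ddit4, an inhibitor of mTOR, was at 7.33 and 4.94 and at 7.76 and 8.76 against 3.72 to 5.94 (2.57, SE 0.32), and Socs3, a brake on cytokine signals, at 10.41 and 7.79 and at 9.76 and 9.88 against 2.86 to 9.55 (3.12, SE 0.32). For Klf2, Ddit4 and Socs3 HSC replicate 2 was below replicate 1 and within the range of the others. The Kruppel-like factors split: Klf4 was at 9.41 and 7.88 in HSC and 3.96 and 3.37 in CD4 T cells (4.98, SE 0.50), and Klf3 at 5.03 and 7.41 against 10.51 and 10.63 (-4.35, SE 0.58).

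Immediate early genes, which respond within minutes to a stimulus or to cell handling, differed between the populations. HSC were higher for 19 of 32 and CD4 T cells for 5, where 16.7% and 14% of all genes were. The median was 1.57 against 0.09 over all genes. The mean level of the list was 9.12 and 8.32 in HSC and 7.55 and 7.20 in CD4 T cells, and 6.10 to 8.96 in the others. MPP (8.47 and 8.84) and LMPP (8.96 and 8.71) all lay above HSC replicate 2, so this level is not particular to HSC. Fosb was at 10.07 and 8.31 in HSC and 2.96 and 3.39 in CD4 T cells (6.02, SE 0.43, adjusted p = 2.34e-09), and the stress gene Ier3 at 10.32 and 10.14 against 4.79 and 5.14. Egr2, known from T cell anergy, was the reverse, at 8.73 and 8.65 in CD4 T cells and 3.95 and 2.86 in HSC (-5.29, SE 0.34). Egr1 was at 12.45 and 12.18 in HSC and 9.05 and 9.19 in CD4 T cells against 4.01 to 11.84, with a resting mean of 2.44 that was 0.999 against MPP, LMPP and Pro B cells alone. In the resting mean 19 of the 32 were called higher and 2 lower, but 11 and 6 against MPP, LMPP and Pro B cells alone, and 0 were shared. The resting mean shares over all genes were 23.4% and 13%. The time from marrow to lysis is not in the labels, and its part in these values was not tested.

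**Figure D4:**
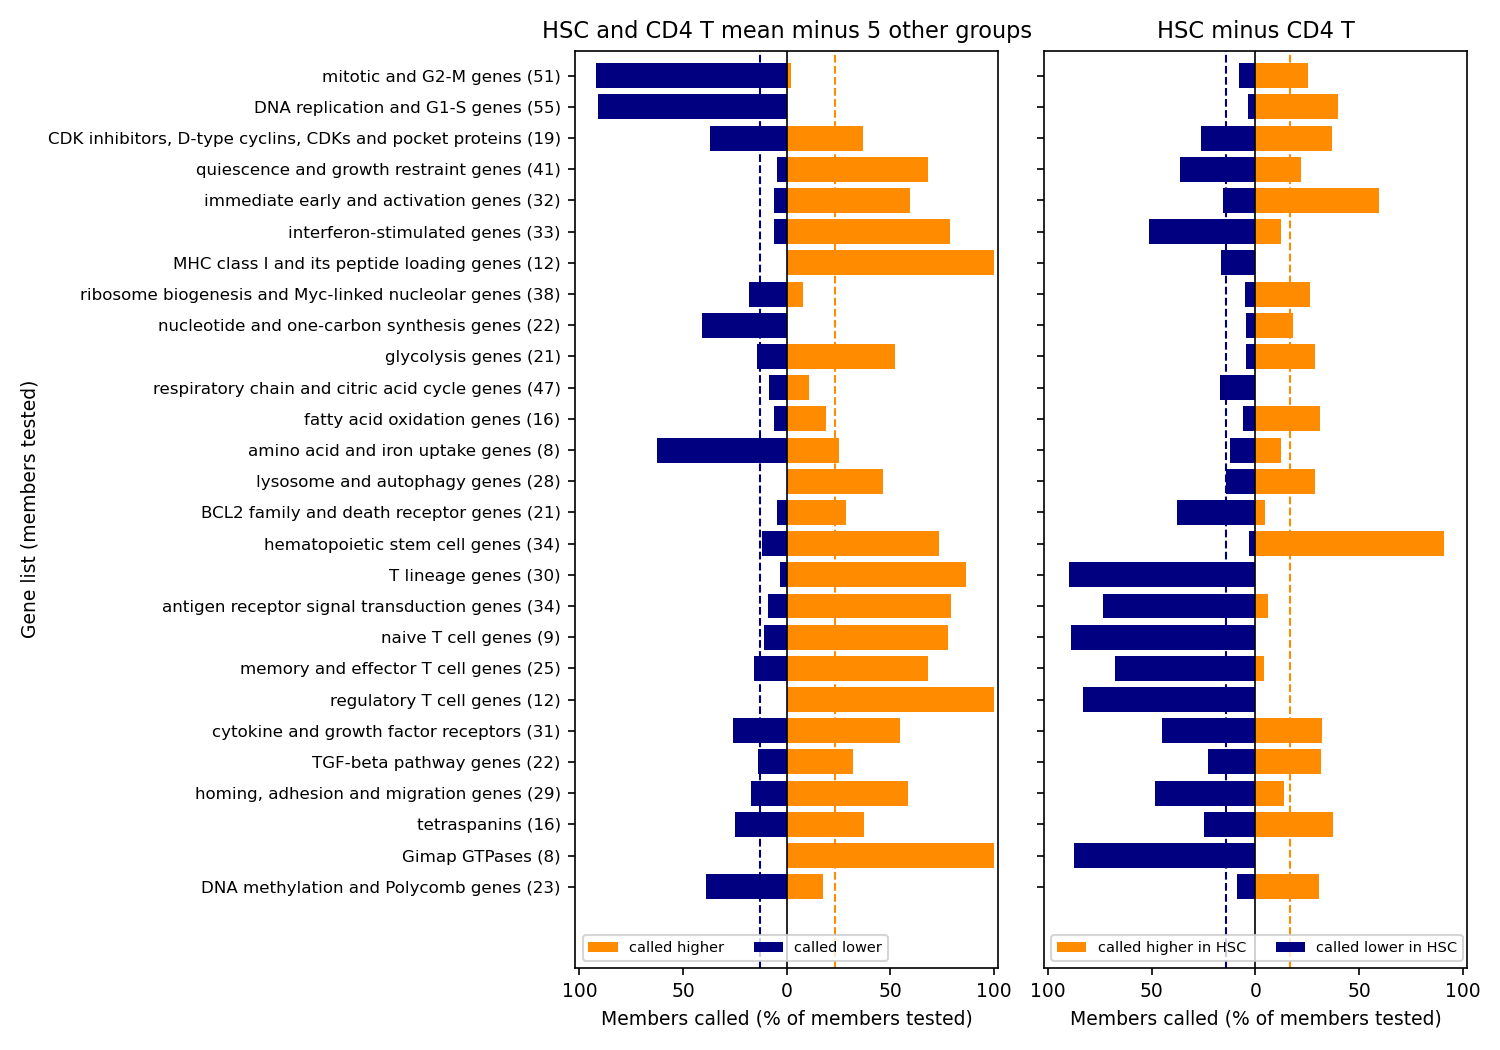
Share of tested members of 27 gene lists called in the resting mean (left) and in HSC minus CD4 T cells (right), with higher to the right and lower to the left of 0. Dashed lines are the shares over all 13479 genes (23.4% higher and 13% lower at left, 16.7% and 14% at right). Mitotic and replication genes (47 of 51 and 50 of 55 lower) extend to the left, MHC class I genes (12 of 12) to the right.

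Metabolic lists moved less. Nucleotide and one-carbon synthesis had 9 of 22 genes called lower and 0 higher in the resting mean (median -0.37), with 3 to 16 lower over all settings tried. Shmt1, a serine hydroxymethyltransferase, was at 7.57 and 7.72 in HSC and 6.65 and 6.32 in CD4 T cells against 8.36 to 9.34 (-1.67, SE 0.15). Mthfd2, its mitochondrial partner in folate metabolism, was higher in CD4 T cells, at 8.39 and 8.24 against 5.06 and 6.07 (-2.75, SE 0.31). Ribosome biogenesis genes were called lower for 7 of 38 and higher for 3, where 13% and 23.4% of all genes were, and 10 were higher in HSC than in CD4 T cells and 2 lower. Mycn was higher in HSC by 5.50 (SE 0.41), although its other probe sets gave 0.163 and 0.179, neither called. Respiratory chain genes had 5 of 47 called higher and 4 lower, both below the 23.4% and 13% over all genes. Of the 47, 8 were higher in CD4 T cells, a share near the 14% over all genes. In HSC 0 were higher, where 16.7% of all genes were. These small counts moved with the setting, with 0 to 14 higher and 0 to 15 lower for the respiratory chain.

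Glycolysis genes were called higher for 11 of 21 and lower for 3 in the resting mean, with 7 to 13 higher over all settings tried. Over all genes 23.4% were called higher in the resting mean and 13% lower, so the share of lower glycolysis genes was near that of all genes. Ldhb, a lactate dehydrogenase subunit, was at 9.59 and 9.21 in HSC and 8.82 and 8.86 in CD4 T cells against 6.04 to 8.55 (1.74, SE 0.16, adjusted p = 1.12e-07). The glucose transporter gene Slc2a3 was higher by 1.76 (SE 0.16), with the HSC arrays (10.81 and 10.71) above all others and CD4 T cells (9.08 and 9.01) within their range. Hk2, the inducible hexokinase, was low in CD4 T cells alone, at 3.90 and 2.95 against 7.54 and 7.06 in HSC (3.88, SE 0.31) and 6.41 to 8.82 in the others. Pfkm (3.11, SE 0.34) and Aldoc (3.51, SE 0.32) were also higher in HSC. Lysosome and autophagy genes were called higher for 13 of 28 and lower for 0, with 7 to 18 higher over all settings tried. The autophagy receptor gene Sqstm1 was at 8.97 and 9.13 in HSC and 8.64 and 9.37 in CD4 T cells against 5.69 to 7.95 (1.98, SE 0.23), and the cathepsin gene Ctsd at 9.30 and 9.22 and at 9.56 and 9.44 against 6.29 to 8.54 (1.73, SE 0.21). Gabarapl1, of the same list, differed between the populations, at 10.79 and 11.01 in HSC and 4.89 and 4.90 in CD4 T cells (6.00, SE 0.36). Of fatty acid oxidation genes 3 of 16 were called higher, a share below the 23.4% over all genes, among them Acadvl (1.44, SE 0.21), whose enzyme starts the oxidation of long chains.

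The DNA methylation and Polycomb list had 4 of 23 genes called higher and 9 lower in the resting mean, with 4 to 10 lower over all settings tried. Over all genes 23.4% were called higher and 13% lower, so the higher count lay below the share of all genes. Dnmt1, the maintenance methyltransferase, was at 8.91 and 9.05 in HSC and 9.12 and 8.72 in CD4 T cells against 9.92 to 11.25 (-1.62, SE 0.17, adjusted p = 4.96e-07). Ezh2, the methyltransferase of dividing cells, was at 9.66 and 9.41 and at 7.95 and 7.91 against 9.44 to 11.04 (-1.57, SE 0.16). Its relative Ezh1, chosen after its values were seen, was at 8.78 and 9.05 and at 9.17 and 8.67 against 6.11 to 8.00 (1.55, SE 0.18, adjusted p = 1.11e-06). All 4 arrays lay above the 12 for Ezh1 and below them for Dnmt1, while 1 HSC array overlapped for Ezh2. For Ezh1 the other probe set that passed the filter gave 0.431 and was not called, and the mean of its probe sets gave 0.524. Dnmt3b, a de novo methyltransferase, was lower in CD4 T cells than in HSC, at 6.40 and 5.23 against 8.97 and 8.54 (2.93, SE 0.32).

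Of 34 antigen receptor signalling genes 25 were called higher in CD4 T cells than in HSC, and 7 met the shared rule on the high side. Over all genes these shares were 14% and 8.55%. Prkcq, the protein kinase C of the T cell synapse, was at 8.84 and 8.93 in HSC and 11.12 and 11.23 in CD4 T cells against 4.96 to 8.30 (3.38, SE 0.21, adjusted p = 7.4e-10). Dgka, a diacylglycerol kinase that restrains T cell activation, was at 7.57 and 7.39 and at 12.19 and 12.20 against 4.89 to 7.43, so HSC replicate 2 overlapped the others. Bcl11b, the factor of T lineage commitment, was at 5.41 and 5.24 in HSC, above the 2.79 to 4.78 of the other groups, and at 11.02 and 11.44 in CD4 T cells. Plcg2 was the opposite, at 10.59 and 11.01 in HSC and 5.98 and 5.65 in CD4 T cells (4.98, SE 0.24). All 8 Gimap GTPase genes, known for lymphocyte survival, were called higher in the resting mean, where 23.4% of all genes were. However, 7 were higher in CD4 T cells than in HSC. Gimap3 was at 5.49 and 5.99 in HSC and 10.54 and 10.67 in CD4 T cells against 4.08 to 5.46, so the HSC arrays stood only just above the rest. Gimap4 was at 6.13 and 7.45 in HSC and 12.46 and 12.71 in CD4 T cells, with up to 9.84 in another group.

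Genes of the TGF-beta pathway included some that were high in both. Tgfbr2, the ligand-binding receptor, was at 8.95 and 9.11 in HSC and 11.40 and 11.53 in CD4 T cells against 7.54 to 9.07 (1.95, SE 0.18, adjusted p = 1.08e-07), with 1 HSC array inside that range. Ski, a repressor of SMAD targets, was at 7.47 and 7.39 and at 8.97 and 9.16 against 5.11 to 7.30 (2.07, SE 0.23). Higher in HSC than in CD4 T cells were Eng (9.41 and 9.27 against 5.17 and 6.05; 3.73, SE 0.33) and Bmpr2 (8.92 and 9.99 against 6.61 and 5.73; 3.29, SE 0.50), receptors that act with the BMP branch. Of the 22 genes 7 were called higher in the resting mean and 3 lower, shares near the 23.4% and 13% over all genes.

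Cytokine receptors differed by lineage. Kit, the stem cell factor receptor, was at 10.21 and 11.20 in HSC and 4.22 and 3.16 in CD4 T cells (7.02, SE 0.49), and Il7r, which sustains resting T cells, at 11.56 and 11.76 in CD4 T cells and 5.15 and 5.54 in HSC (-6.32, SE 0.43). Il27ra was higher in both, at 7.42 and 7.92 in HSC and 9.11 and 9.78 in CD4 T cells against 4.57 to 7.67 (2.28, SE 0.19), with HSC replicate 1 inside that range. Flt3, the receptor of early lymphoid progenitors, was called lower in the resting mean (-2.24, SE 0.25), at 8.60 and 7.07 in HSC and 5.46 and 5.32 in CD4 T cells against 6.36 to 11.48. Among survival genes, Birc2, an inhibitor of apoptosis, was at 9.0 and 8.80 in HSC and 8.68 and 8.48 in CD4 T cells against 4.91 to 8.01 (1.56, SE 0.27). Of 21 such genes 6 were called higher and 1 lower, where 23.4% and 13% of all genes were. Bcl2l11, the death activator BIM, was higher in CD4 T cells (-2.58, SE 0.32).

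The largest difference towards HSC was that of Adgrg1. Adgrg1 (GPR56) was at 11.60 and 11.86 in HSC and 3.10 and 3.40 in CD4 T cells (8.48, SE 0.29, adjusted p = 1.56e-13). It was followed by Angpt1 (8.44, SE 0.46), Bex1 (8.35, SE 0.81), Meis1 (8.22, SE 0.51) and Hoxa9 (8.00, SE 0.39), the latter pair transcription factors known in stem cells, and by Ifitm1, Tmem40, Gcnt2, Erg and Vwf, down to 7.40. For Meis1, 1 of its other probe sets gave 0.58 and was not called. In the other direction Ms4a4b, a T cell surface protein, was at 12.41 and 12.52 in CD4 T cells and 2.56 and 3.15 in HSC (-9.61, SE 0.35, adjusted p = 3.84e-13). Cd2 (-8.35, SE 0.39), Cd3g (-8.18, SE 0.24), Cd5 (-8.14, SE 0.26) and the lymph node homing receptor gene Ccr7 (-7.83, SE 0.37) came next, then Cd3d, Ifi209, Ifit1bl1, Rasgrp1 and Icos. These 20 genes were picked among those without overlap between HSC and CD4 T arrays, which 34.6% of all genes showed with HSC above and 27.6% with CD4 T cells above, so their lack of overlap is no result. Averaging the probe sets of a gene lowered several of these values, that of Gcnt2 to 1.756, Meis1 to 4.349, Hoxa9 to 4.756, Erg to 4.231 and Rasgrp1 to -3.017.

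**Figure D5:**
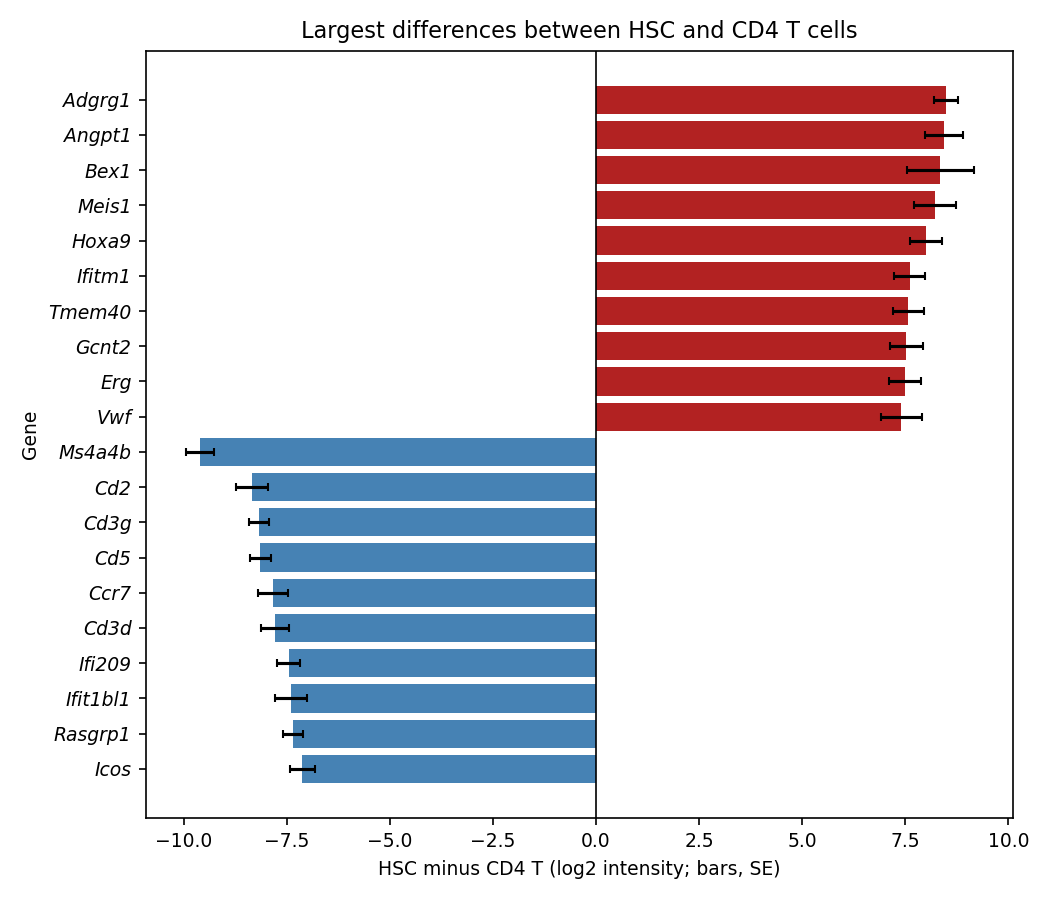
HSC minus CD4 T difference on the log2 scale for the 10 largest called differences in each direction, with SE as whiskers. Red bars (Adgrg1 at 8.48 to Vwf at 7.40) are higher in HSC and blue bars (Ms4a4b at -9.61 first) higher in CD4 T cells.

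The CD4 T arrays held genes of naive, memory and regulatory T cells together. Ccr7 stood beside Cxcr3, a receptor of effector and memory cells, at 9.54 and 9.43 against 3.58 and 3.18 in HSC (-6.11, SE 0.25), and Ctla4, a receptor of regulatory and activated cells, was at 8.45 and 7.78 against 3.76 and 3.46. Of 25 memory and effector genes 17 were higher in CD4 T cells and 1 in HSC, and of 12 regulatory T cell genes 10 and 0. Over all genes 14% were called higher in CD4 T cells and 16.7% in HSC. S100a6 was shared, at 6.37 and 5.62 in HSC and 8.16 in both CD4 T arrays against 2.62 to 5.29 (3.07, SE 0.18).

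Markers of other cells were counted in the same way. Of 10 erythroid markers 8 were called higher in HSC and 2 in CD4 T cells, and the mean level of the list was 6.91 and 8.15 in HSC and 4.90 and 5.53 in CD4 T cells against 4.54 to 6.59. Car1, an erythroid carbonic anhydrase, was at 8.74 and 11.85 in the HSC arrays and at 3.74 and 3.67 in CD4 T cells. Alas2, the first enzyme of erythroid heme synthesis, was at 7.33 and 9.24 in CD4 T cells and at 2.79 and 2.63 in HSC. It passed the filter on dim genes only through these 2 CD4 T arrays, so its call there is no independent result. Of 11 megakaryocyte markers 8 were higher in HSC, at a list level of 7.64 and 7.49 against 4.66 and 4.87. Of 16 B lineage markers 5 were higher in CD4 T cells and 2 in HSC, at a list level of 5.11 and 5.33 in CD4 T cells, 4.74 and 4.64 in HSC and 4.29 to 9.58 in the others. Ms4a1 (CD20) was at 6.36 and 6.66 in CD4 T cells and 2.84 and 2.56 in HSC, and the B cell coactivator gene Pou2af1 at 7.71 and 6.94 against 2.70 and 3.08. The early B lineage factor gene Ebf1 was at 2.76 and 2.75 in CD4 T cells and 2.69 and 2.30 in HSC. Of 10 monocyte markers 4 were higher in CD4 T cells and 1 in HSC, with Csf1r at 8.23 and 8.12 against 5.72 and 5.16. Of 7 plasma cell markers 3 were higher in CD4 T cells and 1 in HSC, with Jchain at 7.56 and 7.48 against 3.12 and 4.88. Of 9 NK cell markers 4 were higher in CD4 T cells and 0 in HSC. Of 12 granulocyte markers 3 were higher in HSC and 0 in CD4 T cells. The 2 CD8 T cell markers tested gave 1 call, Cd8b1, higher in CD4 T cells. Cd8b1 was at 5.27 and 5.91 in CD4 T cells, 3.47 and 3.64 in HSC and 2.91 to 3.59 in the others. The 7 endothelial and stromal markers tested had 3 higher in HSC and 1 in CD4 T cells. Over all genes the shares were 16.7% higher in HSC and 14% higher in CD4 T cells. The part of such cells in the differences was not tested.

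Genes of MHC class II, read on the dendritic cell list, were high in both. H2-Aa was at 10.37 and 10.14 in HSC and 11.10 and 10.63 in CD4 T cells against 6.25 to 9.67 (2.56, SE 0.20, adjusted p = 1.47e-08), H2-Eb1 at 7.25 and 7.36 and at 9.15 and 8.41 against 4.11 to 6.68, and Cd74 at 6.87 and 7.21 and at 8.52 and 7.91 against 4.18 to 6.86. All 4 arrays lay above the 12 for the 3 genes. Of the list's 9 genes 5 were called higher and 2 lower, where 23.4% and 13% of all genes were. The list's mean level was 6.92 and 6.73 in HSC and 7.70 and 7.23 in CD4 T cells against 5.60 to 7.54. Only 1 CD4 T array lay above the others. Some B lineage and monocyte markers were also higher in CD4 T cells than in HSC, as given above. The part of other cells in the class II values was not tested.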

How the data were processed

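The 20 mouse Affymetrix arrays were hybridised with biotin-labelled RNA amplified in 2 rounds from sorted bone marrow cells, per the labels' protocols. The authors deposited 1 linear intensity per probe set and array for 45101 probe sets, made with RMA per the submitters' processing notes (no version was found). The design had assumed log2 values, so log2 was taken first. Probe sets with 1 gene symbol (34958; 932 had several and 9211 none) were named from the platform table, and 34754 were updated through a RefSeq table of GRCm38.p6. The probe set of highest mean stood for a gene. Of 18194 genes, 13479 passed a filter on dim signal (above the median of its array, on 2 arrays or more) and were tested with limma 3.58.1 in R 4.3.3 (lmFit, eBayes with trend) over 9 groups, with 11 residual degrees of freedom, on a script checked on simulated data. As 2 arrays suffice for the filter, a gene could pass it through the arrays of 1 group alone. The number of arrays limits the precision.

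The members and the 38 gene lists were chosen with earlier results of these data known. Named were the 10 largest called differences per direction without overlap, the 10 shared genes per direction with the largest margin, up to 4 called members of a list per comparison, and the CDK control genes; unnamed gene models and receptor segments were left out. Lists are described by counts and medians, with no set test. Another probe set that passed this filter existed for 112 of 203 calls of named genes; in 38 such a probe set was not called, and in 0 it was called the opposite way.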

Additional observations from a re-analysis of the deposited data

How the results depend on the processing

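With every probe set tested on its own, the calls were 3602 higher in HSC, 4385 higher in CD4 T cells, 5380 higher and 3298 lower in the resting mean, and 1920 and 1176 shared genes; more features were tested. Centred on housekeeping genes, 2030 were higher in the resting mean and 613 shared on the high side, 565 of them among the 1152. With at least 2-fold required, the resting mean had 1227 and 626 calls and 609 and 293 shared genes, and with all 4 arrays beyond the 12, 392 and 141. Leaving out 1 array at a time gave 1624 to 2013 genes higher in HSC, 1229 to 1936 higher in CD4 T cells, 2428 to 3785 higher and 1294 to 2092 lower in the resting mean, and 1012 to 1258 and 466 to 616 shared. The mitotic count stayed within 45 to 48 and the replication count within 37 to 53 over all settings. Against MPP, LMPP and Pro B cells, the resting mean of Ccnd3 was -0.033 and that of Cdc25b -0.884; the cause was not tested.

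The labels number replicates alike in all groups. The deviations of HSC and CD4 T arrays with the same number correlated at -0.0993. That value covers only these groups and cannot show whether a number marks a batch. The numbers were taken as names. With a replicate block the counts were 2343, 2016, 3075, 1850, 1145 and 549, and 47 and 52 for the cell cycle lists.

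Averaging a gene's probe sets lowered further values of genes named above, among them Dtl (resting mean -1.781), E2f8 (-1.81), Cep128 (-1.487), Rad51ap1 (-1.868), Nusap1 (-2.039), Tgfbr2 (0.682), Sqstm1 (0.903), Slc2a3 (0.873) and Samhd1 (1.531), and in HSC minus CD4 T cells Chaf1b (1.554), Bmpr2 (1.127), Aldoc (1.851) and Klf3 (-2.057).

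Limits: 2 arrays a group, spread estimated over 9 groups, differing 3′ signal, and probe sets that do not all reach the same transcripts. Dim genes, 4715 in all, were not tested.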

Other observations

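In the 4 NK cell arrays, from Rag2-deficient 129 mice, the mitotic list stood at 8.90 and 8.88 with Ets1 and 9.02 and 8.64 without it, within the range of the 12 progenitor arrays. Of the 10 shared high genes 3 stood above all 12 of those arrays in every NK array: Abcb1a (4.55 to 5.50), Gata3 (6.16 to 6.42) and Prmt2 (8.82 to 9.65). Slamf1 was at 3.28 to 3.44 and Iigp1 at 3.34 to 4.66 in NK cells. Of the 10 shared low genes 0 stood below the 12 in every NK array. The growth restraint list stood at 8.40 and 8.46 in NK cells with Ets1, 7.79 and 8.16 without it, and 8.25 and 8.24 in HSC. The MHC class I list stood at 10.16 and 10.25, 9.66 and 9.61, and 10.14 and 10.24 in the same order. NK cells with Ets1 thus reached the HSC level on both lists. The interferon list stood lower in NK cells, at 6.76 and 6.89 with Ets1 and 6.33 and 6.54 without it. NK cells differ from the other groups in strain and genotype, which cannot be told apart from cell type here.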
